A study of Homo sapiens with 2 samples.

Results

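CALU, REEP5, M6PR and OSTC encode proteins of the secretory pathway whose array values lay more than 2-fold apart between A549 cells given an siRNA against p62/SQSTM1 and A549 cells given a control siRNA. They were chosen by that difference, together with their place in the endoplasmic reticulum, in glycosylation or in lysosomal sorting, and are 4 of the 14884 genes named on the array. Each had exactly 1 probe set, with 1 gene symbol in the platform annotation. CALU was the member with the higher value after p62 silencing, and the other members had lower values. Their differences are therefore a description of the choice and were not tested.

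The study compared A549, an established human lung adenocarcinoma line, transfected with a control siRNA (siCONTROL) or with an siRNA against p62/SQSTM1 (siP62), a receptor of selective autophagy. The labels give no other treatment or genotype for either group. Cells were harvested at 24 hours, and 100 ng of total RNA per sample was labelled for an Affymetrix whole-transcript array. Each group held 1 array, so no value below has a replicate error and no p-value is given. The knockdown is transient and read in 1 line, and the sequence of the siRNA, or whether several were pooled, is not stated in the labels.

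The secretory pathway begins at the endoplasmic reticulum (ER), where a growing protein is threaded through the translocon, receives N-linked sugars from the oligosaccharyltransferase, and folds with the help of calcium-binding chaperones. Membrane hairpin proteins hold part of the ER in tubules. At the Golgi, lysosomal enzymes are tagged with mannose 6-phosphate, and receptors for this tag carry them towards endosomes and lysosomes. Alveolar type II cells, for which A549 often serves as a model, store surfactant in lamellar bodies, which are organelles related to lysosomes.

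Values are the deposited log2 signals, and a difference is the siP62 value minus the siCONTROL value, so that 1 is a doubling. A gene was kept when the higher of its values reached 5.35, the median of all named probe sets over both arrays, which 7896 genes did. Of these, 13 (0.165%) passed 2-fold on the higher side and 18 (0.228%) on the lower side, seen from the siP62 array. All 4 members were kept, 1 on the higher side and 3 on the lower side. Since the rule used this contrast, nothing is read from these shares. A difference above 0 was found for 55.4% of the kept genes and below 0 for 41.8%. Their median difference was 0.04, and their robust SD (a scaled median absolute deviation) was 0.22, which is a spread over genes and not an error between replicates.

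SQSTM1, the siRNA's target, had a value of 8.64 with siCONTROL and 7.30 with siP62. The labels of the arrays thus went with the level of the target. Of the epithelial markers, 5 of 5 named genes were kept, KRT18 at 11.95 with siCONTROL and 11.97 with siP62. Of 7 alveolar type II markers 2 were kept, both through the siCONTROL array alone, so that they had to be lower with siP62. SFTPB was at 5.66 with siCONTROL and 5.30 with siP62, and SFTPD at 5.85 with siCONTROL and 5.27 with siP62. Among those not kept, SFTPC, the defining surfactant gene of that cell, was at 4.27 in both arrays, and SFTPA2 was at 4.69 with siCONTROL and 3.97 with siP62. Of markers of other cell types, 2 of 3 leukocyte genes (CD14 and CD68), 1 of 2 fibroblast genes (LUM) and 0 of 4 endothelial genes were kept. The filter kept 53.1% of all named genes, and no cell type is read from marker counts this small. LUM was at 5.02 with siCONTROL and 5.49 with siP62. It was kept through the siP62 array alone, so it had to be higher there. The part of other cells in the results was not tested. In a culture read in bulk, fewer cells with a transcript and less of it per cell cannot be told apart.

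The sequences before the transcription starts are shown to set CALU beside the members with lower values. Each is the 250 bases before the most upstream start that RefSeq gives on GRCh38.p14, written 5′ to 3′ along the gene's strand; the labels name no build for the array. Capitals mark the letters found by a motif search on both strands. These were the CCAAT box (CCAAT, or ATTGG on the other strand), the GC box (GGGCGG, or CCGCCC) and the ETS core (CCGGAAG, or CTTCCGG).
CALU, chr7:128739109-128739358, strand +: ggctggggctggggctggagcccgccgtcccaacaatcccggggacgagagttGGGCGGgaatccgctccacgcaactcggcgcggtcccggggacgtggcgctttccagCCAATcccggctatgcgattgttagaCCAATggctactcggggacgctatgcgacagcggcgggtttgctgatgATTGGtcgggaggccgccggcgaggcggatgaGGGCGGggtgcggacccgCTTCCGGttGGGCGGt
REEP5, chr5:112922228-112922477, strand -: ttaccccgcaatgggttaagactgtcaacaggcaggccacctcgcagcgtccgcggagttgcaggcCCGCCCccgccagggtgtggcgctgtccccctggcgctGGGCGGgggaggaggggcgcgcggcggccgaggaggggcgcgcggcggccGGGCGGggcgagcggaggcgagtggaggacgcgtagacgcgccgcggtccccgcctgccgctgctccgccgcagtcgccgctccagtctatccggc
M6PR, chr12:8949646-8949895, strand -: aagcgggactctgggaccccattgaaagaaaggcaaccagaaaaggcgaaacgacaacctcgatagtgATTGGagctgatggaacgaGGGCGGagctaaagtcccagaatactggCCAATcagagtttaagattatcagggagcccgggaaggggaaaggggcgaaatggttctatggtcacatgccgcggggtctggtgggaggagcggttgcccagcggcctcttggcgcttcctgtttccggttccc
OSTC, chr4:108650349-108650598, strand +: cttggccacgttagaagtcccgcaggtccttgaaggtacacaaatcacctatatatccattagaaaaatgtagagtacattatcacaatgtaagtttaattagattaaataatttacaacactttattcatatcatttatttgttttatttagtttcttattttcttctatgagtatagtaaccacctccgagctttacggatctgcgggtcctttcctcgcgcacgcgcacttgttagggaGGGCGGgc
The CALU window held 3 CCAAT boxes, 3 GC boxes and 1 ETS core. M6PR had 2 CCAAT boxes and 1 GC box, REEP5 had 3 GC boxes and no CCAAT box, and OSTC had 1 GC box alone. Among the windows of 27305 genes, 33.0% held a CCAAT box and 3.09% held 3 or more, 42.2% held a GC box and 13.9% held 3 or more, and 8.78% held an ETS core. The windows differed widely in base composition. GC content was 77.2% for REEP5, 69.2% for CALU, 56.4% for M6PR and 38.4% for OSTC, and 93.6% of all windows had a lower GC content than REEP5 but 10.5% a lower one than OSTC. The same search found no ER stress element (CCAAT and CCACG with 9 bases between, in 0.0769% of windows, or ATTGG and CCACG with 1 base between, in 0.0549%) and no UPRE core (TGACGTGG, in 0.685%) in the window of any member. It also found no E-box (CACGTG, 6.46%, the centre of the CLEAR element of lysosomal genes), no core of the antioxidant response element (TGAC and GC with 3 bases between, 11.1%) and no cAMP response core (TGACGTCA, 1.75%). A missing match says only that these letters are not in this window.

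**Figure D1:**
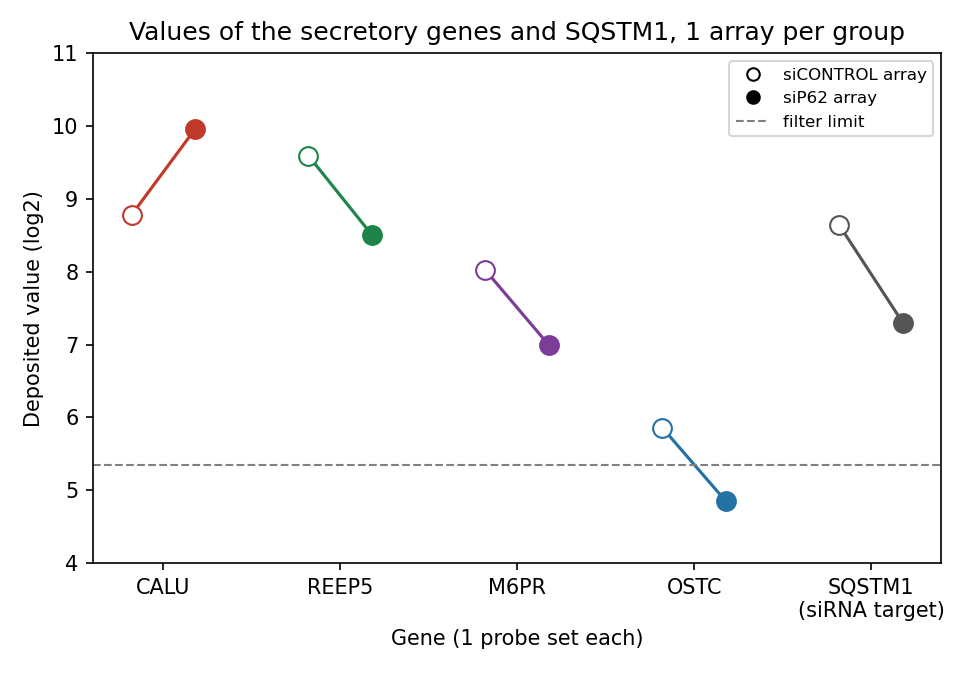
Deposited log2 values (vertical axis) of CALU, REEP5, M6PR, OSTC and the siRNA target SQSTM1 in the siCONTROL array (open circles) and the siP62 array (filled circles), with 1 array per group and no error bars; the dashed line is the filter limit of 5.35. CALU goes up from 8.78 to 9.96, the other genes go down, and OSTC ends below the filter limit at 4.85.

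CALU encodes calumenin, a calcium-binding EF-hand protein of the ER lumen and secretory pathway, which binds the vitamin K-dependent carboxylation system and restrains it. Its log2 value was 8.78 with siCONTROL and 9.96 with siP62, a difference of 1.18 or a 2.27-fold higher signal. CALU was rank 8 from the highest difference among all kept genes, and none of the 394 other genes in its bin (1 of 20 bins of like mean level) was higher. That bin had a robust SD of 0.18. CALU and the other members were chosen by this difference, so their ranks and places in bins follow largely from that choice. After every centring or normalization tried, the CALU difference lay between 1.14 and 1.18.

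Calumenin belongs to the CREC family of EF-hand proteins, of which 2 of 5 genes were named on the array, and both were kept. SDF4, which encodes the Golgi member Cab45, was at 8.09 with siCONTROL and 7.96 with siP62. Its difference of -0.13 had the opposite sign to that of CALU. The enzyme that calumenin restrains, the gamma-carboxylase GGCX, had 7.56 with siCONTROL and 7.79 with siP62, a difference of 0.23. Of 10 genes of vitamin K-dependent carboxylation and its substrates, 8 were named and 5 kept, with a median difference of 0.11. Without a filter, the median over the 8 named genes was -0.02. PRRG4, a membrane protein with a carboxylated Gla domain, stood above the others, at 4.77 with siCONTROL and 6.03 with siP62, a difference of 1.26. It passed the filter through the siP62 array alone, so it had to differ, and a signal above background is not shown for its control value. The other substrates were close to 0, with 0.11 for PROS1 (protein S), -0.09 for GAS6 (a ligand of TAM receptors) and -0.02 for PRRG1. The vitamin K reductase genes VKORC1 and VKORC1L1 were not analysed here.

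REEP5 encodes a hairpin protein that bends ER membrane into tubules. Its value was 9.59 with siCONTROL and 8.50 with siP62. The difference of -1.09 left 47.0% of the control signal, at rank 7 from the lowest of all kept genes. None of the 394 other genes in its bin was lower, and the robust SD of the bin was 0.19. As for CALU, this place follows largely from the choice. Centring moved the difference to no more than -1.13.

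The 4 other kept REEP genes had smaller differences, 3 of them of the opposite sign. REEP6 was at 7.18 with siCONTROL and 7.66 with siP62, a difference of 0.48. REEP2 differed by 0.30 and REEP4, which clears ER from mitotic chromosomes, by 0.22. REEP3, which shares that mitotic role, had 9.02 with siCONTROL and 8.73 with siP62, a difference of -0.29. REEP1 did not pass the filter, with 3.25 and 3.11 in the siCONTROL and siP62 arrays. REEP5 was the only kept REEP gene 1.5-fold or more apart between the arrays, but it was chosen by that difference. Of all kept genes, 3.67% were 1.5-fold apart and 55.4% had a difference above 0.

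Reticulons, atlastins and sheet proteins shape the ER along with REEP5. Among the 13 kept ER-shaping genes other than REEP5, 5 had a difference above 0 and 8 below it. Of these 13, 0 were 1.5-fold apart, beside 3.67% of all kept genes. Their median of -0.06 compares with 0.04 for all kept genes, and 3 lay above and 8 below that overall median. The ribosome-binding sheet protein RRBP1 and the tubule junction protein LNPK each differed by -0.20, the microtubule-severing SPAST by -0.19, and the fusion GTPase ATL3 by -0.15. CKAP4, a spacer of ER sheets, differed by -0.14. RTN4, the most studied reticulon, was almost level, at 6.99 with siCONTROL and 7.03 with siP62, and RTN3 differed by -0.03 and RTN2 by -0.06. TMEM33 was at 0.04. ER-phagy receptors mark ER for degradation by autophagy. The 4 kept among them had differences of -0.23 (SEC62), -0.16 (CALCOCO1), -0.15 (ATL3) and -0.03 (RTN3), none of them 1.5-fold.

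M6PR encodes the cation-dependent mannose 6-phosphate receptor, which carries newly made lysosomal enzymes from the trans-Golgi network to endosomes. Its value was 8.02 with siCONTROL and 6.99 with siP62, a difference of -1.03. The siP62 signal was 49.0% of the control signal. M6PR was at rank 16 from the lowest difference, and 1 of the 394 other genes of its bin was lower, with a robust SD of 0.22 in that bin. Here too, the rank and the place follow largely from the choice by this difference.

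The second receptor for the tag also had a lower value. IGF2R, the cation-independent receptor, had 8.94 with siCONTROL and 8.32 with siP62, a difference of -0.62 or 1.54-fold. Of all kept genes, 126 (1.6%) were at least 1.5-fold lower and 164 (2.08%) at least 1.5-fold higher; with the median difference subtracted these counts were 154 and 127. The remaining 6 kept genes of mannose 6-phosphate sorting were nearer to 0. PLIN3, once described as a receptor-binding protein of endosomes, differed by -0.10. NAGPA, the Golgi enzyme that uncovers the tag, differed by 0.11. The retromer genes, whose complex returns the receptors from endosomes, lay at 0.02 (VPS26A), 0.04 (VPS26B), 0.10 (VPS35) and 0.21 (VPS29). Without M6PR the 7 kept genes of this list had a median of 0.04, equal to that of all kept genes. The GGA adaptors, the AP-1 subunits and the phosphotransferase genes GNPTAB and GNPTG were not analysed here, as 8 of the 24 listed genes were named.

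Of 45 lysosomal hydrolases and cofactors, 25 were named and 23 kept, with a median of 0.05. Of those kept, 0 were 1.5-fold apart, beside 3.67% of all kept genes. The list was not limited to enzymes that these receptors carry. Against the overall median of 0.04, 12 lay above and 11 below. The cysteine protease gene CTSB was lowest at -0.34, from 7.24 in the siCONTROL array to 6.90 in the siP62 array, and IDS, which removes sulfate from heparan and dermatan sulfate, was highest at 0.36. CTSF and CTSS, both lysosomal proteases, each differed by 0.28. CTSD, the main aspartic protease of the lysosome and a carrier of the tag, had 11.94 with siCONTROL and 12.06 with siP62.

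OSTC encodes a small subunit of the oligosaccharyltransferase that holds the STT3A form of the enzyme to the translocon, so that N-glycans are added during translation. It had 5.86 with siCONTROL and 4.85 with siP62, a difference of -1.01. The siP62 value lay below the filter limit, so a signal above background is not shown there and the size of the difference is uncertain. OSTC passed the filter through the siCONTROL array alone, as 1 of 220 such genes, each of which had to be lower in the siP62 array. Without a filter, OSTC had the lowest difference of the 745 genes in its bin, whose robust SD was 0.25. OSTC was picked by this same difference, so its low place in the bin adds no separate evidence. RefSeq lists 7 pseudogenes of OSTC, and the one named on the array, OSTCP1, had 4.14 with siCONTROL and 3.99 with siP62. Whether the OSTC probes also bind such copies was not checked.

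The other kept subunits of the enzyme had smaller differences. OSTC was chosen by its difference, so this contrast follows largely from that choice. Among the 9 other kept subunits, 7 had a difference above 0 and 2 below it, and the median was 0.06. Of these 9, 0 were 1.5-fold apart, beside 3.67% of all kept genes. Against the overall median of 0.04, 6 lay above and 3 below. The ribophorins RPN1 and RPN2, core subunits of both enzyme forms, differed by 0.06 and 0.03. DDOST and OST4, also core subunits, differed by 0.12 and 0.18, TMEM258 by 0.05, and DAD1 by -0.13. KRTCAP2, which belongs with OSTC to the translocon-bound form, had 6.86 with siCONTROL and 7.24 with siP62, a difference of 0.38. MAGT1 and TUSC3 are alternative oxidoreductases of the STT3B form. MAGT1 had 8.45 with siCONTROL and 8.09 with siP62, a difference of -0.36, while TUSC3 differed by 0.07. The catalytic subunits STT3A and STT3B were not analysed here.

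**Figure D2:**
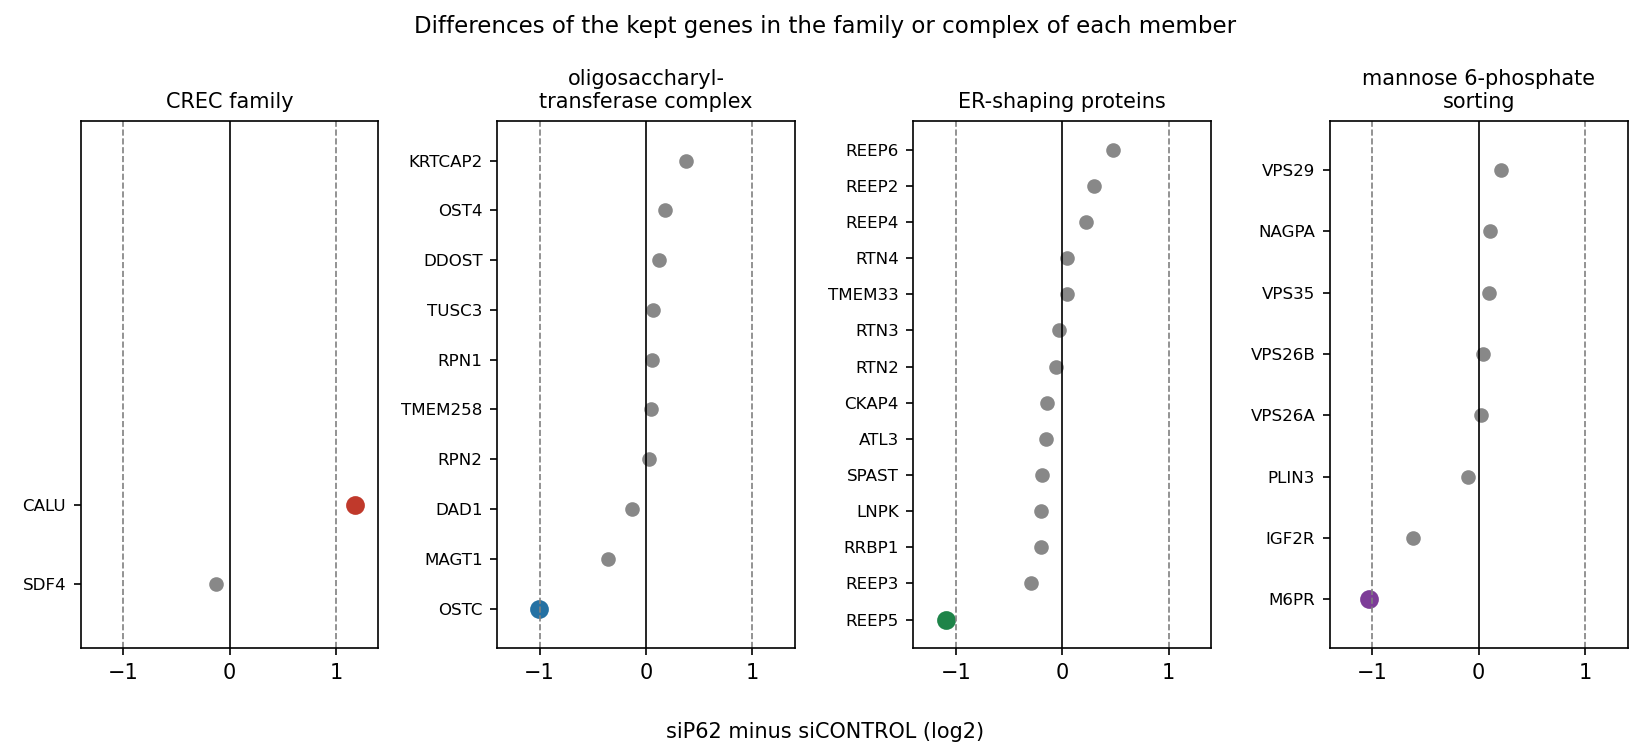
Difference between the arrays (siP62 minus siCONTROL, log2, horizontal axis) for each kept gene of the CREC family, the oligosaccharyltransferase complex, the ER-shaping proteins and mannose 6-phosphate sorting, with 1 point per gene, coloured for the members; dashed lines mark a 2-fold difference. Each member, chosen for its difference, lies at the end of its group, and IGF2R at -0.62 is the gene nearest to M6PR.

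Steps of glycosylation before and after OSTC were read in part. For assembly of the dolichol-linked sugar 10 of 26 listed genes were named, and for N-glycan trimming and quality control 9 of 20. All of these named genes were kept, and 0 of them were 1.5-fold apart, beside 3.67% of all kept genes. The 10 assembly genes had a median of 0.035 and ran from -0.28 (DOLPP1, which recycles the dolichol carrier) to 0.19 (MPDU1, needed for use of its mannose donors). ALG13, part of the second enzyme of the assembly, differed by -0.15. The 9 trimming and quality control genes had a median of -0.04. NGLY1, which strips sugars from misfolded proteins, differed by -0.29, PRKCSH, the beta subunit of glucosidase II, by 0.29, and ERLEC1, an ER lectin, by 0.17. The lectin chaperones CANX and CALR differed by 0.10 and -0.04.

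Of the 18 kept genes for protein entry into the ER, 1 (5.56%) was past 1.5-fold, beside 3.67% of all kept genes. TRAM2, a translocon-associated protein linked to collagen synthesis, had 8.91 with siCONTROL and 9.59 with siP62, a difference of 0.68. Its relative TRAM1 differed by 0.17 in its higher probe set and by -0.12 in the other. The 18 kept genes of the translocon, signal recognition particle and signal peptidase had a median of 0.07. SEC61A2, an alternative pore subunit, differed by 0.35 and SRP19 by 0.33.

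Of 16 kept cargo receptors, ERGIC2, which cycles between the ER and the Golgi, was 1.56-fold lower, at 9.21 with siCONTROL and 8.57 with siP62. MCFD2, the partner of the lectin LMAN1 in the export of clotting factors V and VIII, was 1.51-fold higher, at 6.07 with siCONTROL and 6.66 with siP62. Its difference of 0.59 fell short of 1.5-fold (0.585 on the log2 scale) once the median difference was subtracted (0.55), with loess centring (0.56) and with quantile normalization (0.565). TMED5, a p24 family receptor, differed by -0.43. As deposited, ERGIC2 and MCFD2 are 12.5% of the 16, beside 3.67% of all kept genes. With so few genes nothing is read from this share. The median over the 16 was -0.035. The 8 kept genes of the COPII coat, which forms carriers that leave the ER, also had a median of -0.035. They went both ways, 4 above 0 and 4 below it. KLHL12, a ubiquitin ligase adaptor for large carriers, differed by 0.30 and the coat subunit genes SEC23B and SEC23A by 0.24 and 0.15, while the GTPase genes SAR1A and SAR1B each differed by -0.24. The 8 kept genes of the COPI coat and retrieval had a median of 0.04, with GBF1, the exchange factor for ARF GTPases, at -0.27 and KDELR1, a retrieval receptor for ER residents, at 0.23.

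Across the 13 lists, 250 genes were listed, 145 named and 132 kept. Without the members, 128 remained, of which 3 were at least 1.5-fold higher (PRRG4, TRAM2 and MCFD2) and 2 at least 1.5-fold lower (ERGIC2 and IGF2R). These 5 genes are 3.91% of the 128, close to the 3.67% of all kept genes. With the median difference subtracted MCFD2 no longer counted, leaving 4 genes (3.12%) beside 3.56% of all kept genes. As deposited, the median of the 128 was 0.04, the same as that of all kept genes. PRRG4, kept through the siP62 array alone, was the only one past 2-fold. That is 0.781% of the 128, beside 0.393% of all kept genes. The members nearest to the 2-fold limit on the inside were OSTC (-1.01) and M6PR (-1.03), and the listed genes nearest on the outside were ERGIC2 (-0.64) on the lower side and TRAM2 (0.68) on the higher side. No listed gene lay between, but the members were chosen by this limit, so nothing is read from the gap. Kept genes outside the lists did lie there, such as BLOC1S6 (-0.85) and SNHG16 (0.81).

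**Figure D3:**
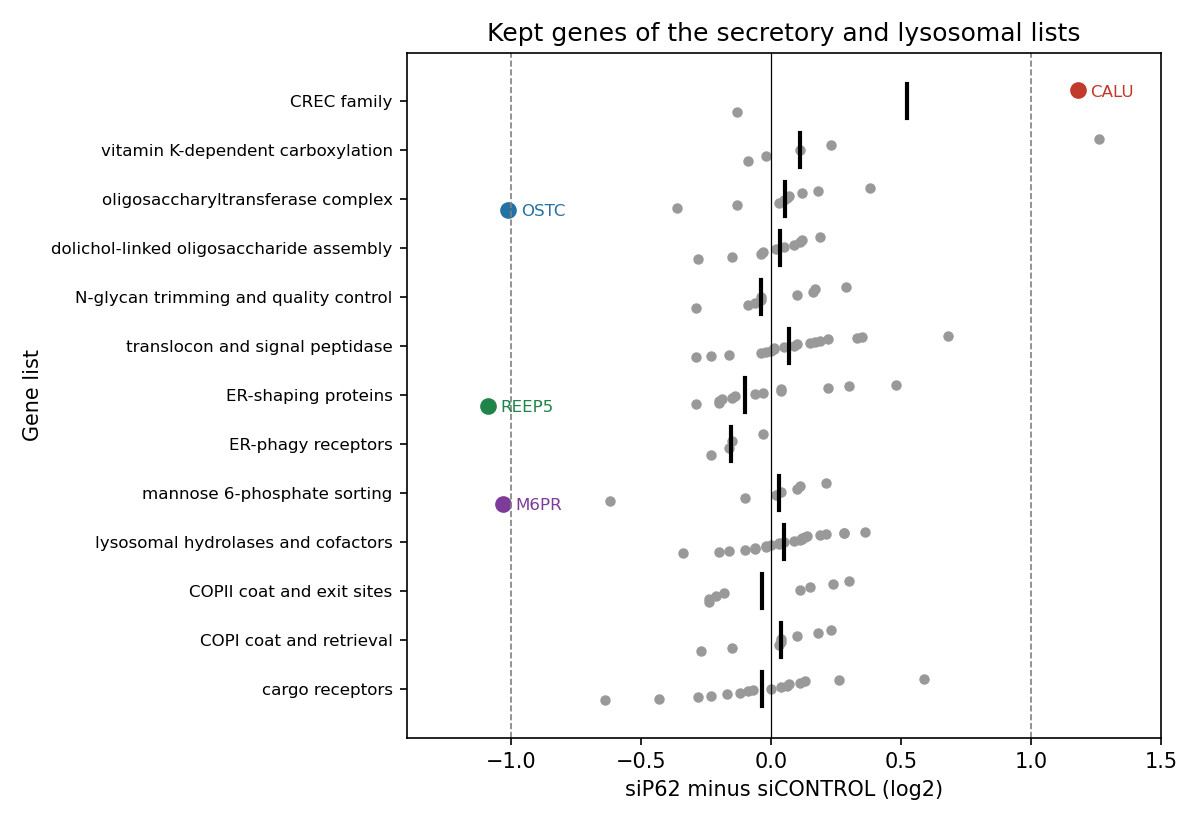
Difference between the arrays (siP62 minus siCONTROL, log2, horizontal axis) for the kept genes of the 13 secretory and lysosomal gene lists (vertical axis), with 1 grey point per gene, coloured points for the members and a black bar at the median of each list; dashed lines mark a 2-fold difference. Apart from the CREC family with 2 genes, the medians lie between -0.155 and 0.11. The members lie beyond the dashed lines by the rule that chose them, and PRRG4 (1.26), which is not a member, also does.

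Among all kept genes, those with the pair of values closest to a member's were found by Euclidean distance over the 2 arrays. For CALU these were MET, the receptor of hepatocyte growth factor (distance 0.18), SNHG16 (0.26) and TRAM2 (0.39). For M6PR they were UEVLD (0.057), BLOC1S6, a subunit of a complex that forms lysosome-related organelles (0.13), and MIR502 (0.25). UEVLD had 8.06 with siCONTROL and 6.95 with siP62, and BLOC1S6 had 7.92 with siCONTROL and 7.07 with siP62. REEP5 had NFIB, a transcription factor (0.36), TLE5, a corepressor (0.38), and ERGIC2 (0.39) as its closest genes. OSTC had FSAF1 (0.15), CEP19 (0.16) and MIR423 (0.20). With a pair of arrays, such closeness reflects a like level and a like difference and is a description alone.

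**Figure D4:**
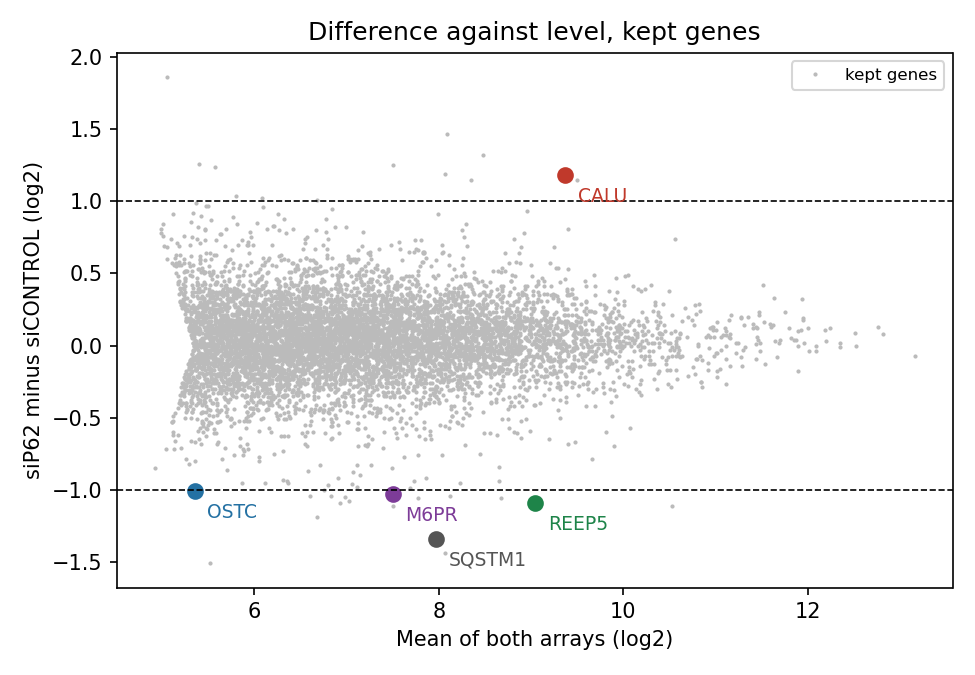
Difference between the arrays (siP62 minus siCONTROL, log2) against the mean log2 value of both arrays for the 7896 kept genes (grey), with CALU, REEP5, M6PR, OSTC and SQSTM1 coloured; dashed lines mark a 2-fold difference. CALU (1.18) lies at the upper edge of the cloud, REEP5, M6PR and SQSTM1 at its lower edge, and OSTC (-1.01) at the low-signal end. The robust SD of the bin of OSTC was 0.39 over kept genes and 0.25 without a filter. A gene with a mean below the filter limit is kept only if its values differ, which widens the former spread.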

How the data were processed

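RNA of 2 A549 samples, 1 per group, was read on Affymetrix whole-transcript arrays. The deposited table gives 48226 probe sets as log2 values; per the submitters' processing notes, the tools were RMA and Transcriptome Analysis Console, version 4.0.2.15. RMA as usually run makes the distributions of arrays alike, so differences are relative to the bulk of probe sets. No genome build is named. The platform annotation gave 1 symbol for 16098 probe sets, several for 0 and none for 32128; all 16098 gene identifiers matched RefSeq (GRCh38.p14), which supplied current symbols and promoter sequences. The probe set with the highest mean stood for a gene. Genes, limits and lists were processed in Python 3.11.15 with pandas 2.3.3 and statsmodels 0.14.6 (loess span 0.4), and the counting was tested on simulated data. With 1 array per group no test was possible; the number of arrays limits the precision. No detection call came with the values.

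The members and gene lists were chosen with earlier results of these data known. Named genes are the members, SQSTM1, kept genes of the members' own families or complexes, up to 3 kept genes with the largest absolute difference and any past 1.5-fold in other lists, and the 3 kept genes closest to each member. Others (CTSD, CANX, CALR, the marker genes, OSTCP1, TRAM1, GAS6, PRRG1 and SEC23A) illustrate a list and were picked with values in view. Alternatives were median or loess centring, quantile normalization, no filter, a filter at the 70th percentile and the mean over probe sets.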

Additional observations from a re-analysis of the deposited data

How the results depend on the processing

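No paired analysis was possible because each group had 1 array, and for the same reason no replicate could be left out. As deposited and under median centring, loess centring and quantile normalization, CALU ranged from 1.14 to 1.18 and REEP5 from -1.13 to -1.09. M6PR ranged from -1.08 to -1.03 and OSTC from -1.05 to -1.01. All stayed past 2-fold in the deposited direction. Each member has 1 probe set, so the mean over probe sets could not change its value. Median centring shifted all kept genes alike, and the members were chosen past 2-fold on these arrays, so the ranges are no separate support. At the 70th percentile filter (6.67) OSTC was not kept. The count of genes at least 2-fold higher was 13 as reported, 25 with no filter and 8 under the 70th percentile filter. The list medians moved by less than 0.22, the robust SD over genes, under every alternative, but several lie so near 0 that their sign changed. At 1.5-fold the share of higher genes was 56.6% as deposited and 45.2% with the median difference subtracted. A low signal limits OSTC and PRRG4, each with 1 value below the filter limit.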
